A study of Mus musculus with 6 samples.

Results

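Fibroblast growth factors (FGFs) and their receptors were compared between stromal cells of injured mouse quadriceps sorted by a reporter of p16, a product of Cdkn2a that halts the cell cycle. The set held 10 genes, taken by symbol from the 55536 gene identifiers of the count files through GENCODE vM21. It comprised 5 ligands (Fgf2, Fgf7, Fgf9, Fgf10 and Fgf18), the 4 receptor tyrosine kinase genes Fgfr1 to Fgfr4, and Fgfrl1, a receptor without a kinase domain. All 10 passed the filter on low counts, as did 15903 genes in all.

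There were 3 libraries of tdTomato-positive (p16+) cells and 3 of tdTomato-negative (p16-) cells. Both groups came from a tdTomato p16 reporter line on C57Bl/6 and from the same gate, CD45-CD31-CD29+, in a model of foreign body fibrosis. Per the protocols, quadriceps muscle was resected at 10 weeks of age and the defect received polycaprolactone particles (30 mg), a decellularized matrix, or saline (50 uL). Tissue was taken 1 or 6 weeks later. The filler and week of each library are not given in the sources used here. The labels do not say whether replicates are different animals, and the p-values below describe the variation among these 6 libraries, which may be technical.

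FGFs are secreted or released proteins that bind a tyrosine kinase receptor together with heparan sulfate chains on the cell surface. The receptor phosphorylates the docking protein FRS2 and signals through RAS and the ERK kinases, which in turn induce feedback inhibitors such as Sprouty and DUSP proteins. In many organs mesenchymal cells make Fgf7 and Fgf10, whose main receptor is the splice form of FGFR2 found in epithelia. In skeletal muscle, FGF2 is known as a mitogen of satellite cells and fibroblasts, and FGF18 is known for its part in cartilage and bone growth.

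Total counts were 35253406 to 37861713 per p16+ library and 36507067 to 39103909 per p16- library. Cdkn2a, the basis of the sort, had 7.82 ± 0.961 CPM in p16+ against 2.13 ± 0.329 CPM in p16- cells (SD, n = 3 each; CPM is the count divided by the TMM-scaled library size, and 3 counts correspond to 0.0767 to 0.0851 CPM). On principal components the first, with 41.2% of the variance, separated the groups, and p16+ replicates 2 and 3 lay at opposite ends of the second (18.1%). The 8 fibroblast markers summed to 151633 to 159079 CPM in p16+ and 89527 to 107082 CPM in p16- libraries, most of it the collagen genes Col1a1, Col1a2 and Col3a1, and the 6 epithelial markers to 0.248 to 0.759 CPM in p16+ and 0.672 to 1.5 CPM in p16-. Of the 8 fibroblast markers 6 were higher in p16+ cells at an adjusted p under 0.05 by edgeR, beside 8.69% of all genes tested. Pdgfra (866 ± 54.7 CPM in p16+ and 1018 ± 121 CPM in p16-) and Dcn (7884 ± 423 CPM in p16+ and 8744 ± 474 CPM in p16-) did not pass. Transcripts of the gated-out genes were low but present. Ptprc (CD45) had 7.77 ± 2.22 CPM in p16+ and 4.89 ± 0.929 CPM in p16- cells, and Pecam1 (CD31) had 6.73 ± 1.58 CPM in p16+ and 3.34 ± 0.778 CPM in p16- cells. Pecam1 was higher in p16+ cells (adjusted p = 0.00871 by edgeR; 0.0621 without p16+ replicate 3) and was called in 12 of 13 alternative settings. Ptprc did not pass (adjusted p = 0.0602 by edgeR) and was called in 6 of these 13. Itgb1 (CD29), which the gate selects, had 891 ± 21.7 CPM in p16+ and 758 ± 53.4 CPM in p16- cells.

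In p16+ cells 3 of the 5 ligand genes were lower, Fgf10, Fgf2 and Fgf18, and 1 of the 5 receptor genes, Fgfr4, was higher. The other 6 genes did not pass, the threshold being an adjusted p of 0.05 in the quasi-likelihood test of edgeR. In bulk libraries fewer cells of a type and less RNA per cell cannot be told apart. Over all genes tested 16.7% passed, 8.69% higher and 8.04% lower in p16+ cells. The 3 ligands that passed were each at least 2-fold lower, as were 2.31% of all genes tested; 4.21% passed with at least 2-fold in either direction. With library sizes alone as the scaling, the share of called genes that were higher in p16+ was 36% in place of 52%, and the 3 ligands and Fgfr4 kept their calls. The median log2 fold change was -1.05 over the ligands and 0.36 over the 4 kinase receptors, against -0.01 over all genes tested.

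Promoters are shown for Fgf10 and Fgf18, both lower in p16+ cells, and for Fgf7, an abundant ligand that did not pass the test. Each is the 250 bases before the RefSeq start in GRCm38.p6, read 5′ to 3′ on the strand of the gene, with searched motifs in capitals. The windows are chr13:118714449-118714698 on the plus strand for Fgf10, chr11:33147401-33147650 on the minus strand for Fgf18 and chr2:126034408-126034657 on the plus strand for Fgf7. The Fgf10 window lies inside the longer span that vM21 gives the gene.
Fgf10: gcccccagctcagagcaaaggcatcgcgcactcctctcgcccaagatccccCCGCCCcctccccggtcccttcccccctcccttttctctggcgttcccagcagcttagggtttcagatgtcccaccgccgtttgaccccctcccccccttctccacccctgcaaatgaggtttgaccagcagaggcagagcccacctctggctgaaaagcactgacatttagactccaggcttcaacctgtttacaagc
Fgf18: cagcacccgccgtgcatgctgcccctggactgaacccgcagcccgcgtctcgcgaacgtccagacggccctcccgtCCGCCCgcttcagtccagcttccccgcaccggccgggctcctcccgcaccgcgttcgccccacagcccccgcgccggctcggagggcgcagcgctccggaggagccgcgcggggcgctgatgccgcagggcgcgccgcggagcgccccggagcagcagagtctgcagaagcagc
Fgf7: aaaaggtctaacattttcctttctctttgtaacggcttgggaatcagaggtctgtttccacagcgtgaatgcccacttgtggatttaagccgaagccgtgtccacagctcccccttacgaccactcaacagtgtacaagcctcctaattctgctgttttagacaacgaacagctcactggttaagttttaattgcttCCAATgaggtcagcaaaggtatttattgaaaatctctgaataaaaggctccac
The motifs searched, on both strands, were the TATA box TATAAA, the CCAAT box CCAAT, the GC box GGGCGG, the AP-1 site TGANTCA, the E-box CACGTG, the ETS site CCGGAAG and the TEAD site GGAATG. The window of Fgf10 held 1 GC box, 199 to 194 bases before the start, and that of Fgf18 held 1 GC box, 174 to 169 bases before it. A GC box was present in 32.7% of the 32851 windows of this length in the table. Among members not printed, GC boxes were also found for Fgf2 (lower), Fgfr4 (higher), and Fgfr3 and Fgfrl1 (not called). In vM21 all 250 bases of the Fgf2 window and 178 bases of the Fgfr4 window lie in annotated exons of the gene itself. Fgfr3 had more than 1 window in the table. The windows of Fgf9 and Fgfr2 held none. The window of Fgf7 held 1 CCAAT box, 53 to 49 bases before the start, a motif found in 33.8% of windows. The GC content was 61.2% in Fgf10, 77.2% in Fgf18 and 43.6% in Fgf7, with a median of 52.4% over all windows. Of the 10 genes, 9 had a window in the table, with no entry for Fgfr1.

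Fgf10 (ENSMUSG00000021732.14, chromosome 13, 118669791 to 118792115, plus strand) showed the largest difference of the set on the log2 scale among the called genes. Its 3 libraries of p16+ cells had 14.8, 14.9 and 12.7 CPM, and those of p16- cells 59.8, 46.6 and 60.4 CPM. Every p16+ library lay below every p16- library, the lowest p16- library being replicate 2. Fgf10 was 3.93-fold lower in p16+ cells (log2 fold change -1.97, SE 0.12, adjusted p = 5.24e-08 by edgeR), and its p ranked 9 of 15903 genes.

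Fgf2 (ENSMUSG00000037225.13, chromosome 3, 37348346 to 37410108, plus strand), the broadly acting basic FGF that leaves cells without a signal peptide, had 29.4, 29.3 and 28.7 CPM in p16+ and 69.8, 72.9 and 65.8 CPM in p16- libraries. The groups were far apart against a spread within p16+ of 0.371 CPM (SD) and within p16- of 3.57 CPM. The log2 fold change was -1.26 (SE 0.08, adjusted p = 1.23e-07 by edgeR), ranking 12 by p. Exons of Nudt6, on the opposite strand, and of a gene model on the same strand with 0 counts overlap 13.2% of the exonic length of Fgf2, and the libraries do not mark strand.

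Fgf18 (ENSMUSG00000057967.12, chromosome 11, 33117430 to 33147400, minus strand) had 14.6, 13.2 and 12.4 CPM in p16+ and 24.4, 28.2 and 31 CPM in p16- libraries. The highest p16+ library stayed well under the lowest p16- library. The log2 fold change was -1.05 (SE 0.12, adjusted p = 1.62e-05 by edgeR), or 2.08-fold lower in p16+ cells.

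Fgf7 (ENSMUSG00000027208.14, chromosome 2, 126034658 to 126091185, plus strand), the keratinocyte growth factor and closest relative of Fgf10 in the set, had 48.7, 55.7 and 57.9 CPM in p16+ and 61.7, 65.6 and 58.7 CPM in p16- libraries. The groups did not overlap, but p16+ replicate 3 and p16- replicate 3 almost met. The log2 fold change of -0.20 (SE 0.09, 95% interval -0.38 to -0.01) did not pass after adjustment (adjusted p = 0.146 by edgeR), and passed with library sizes alone (-0.27, adjusted p = 0.0353). As a ratio chosen after the values were seen and not tested, Fgf7 was 4.65, 5.29 and 6.48 times the level of Fgf10 per length in p16+ libraries and 1.46, 2 and 1.37 times in p16- libraries. Fgf9 (ENSMUSG00000021974.15, chromosome 14, 58070547 to 58112720), a ligand of the mesenchymal receptor splice forms, had only 43 to 61 counts in p16+ and 49 to 79 counts in p16- libraries. Its groups overlapped, with means of 1.4 ± 0.245 CPM for p16+ and 1.6 ± 0.353 CPM for p16- cells. The 95% interval of its log2 fold change was wide, -1.01 to 0.62, and no difference was detectable at this depth.

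**Figure D1:**
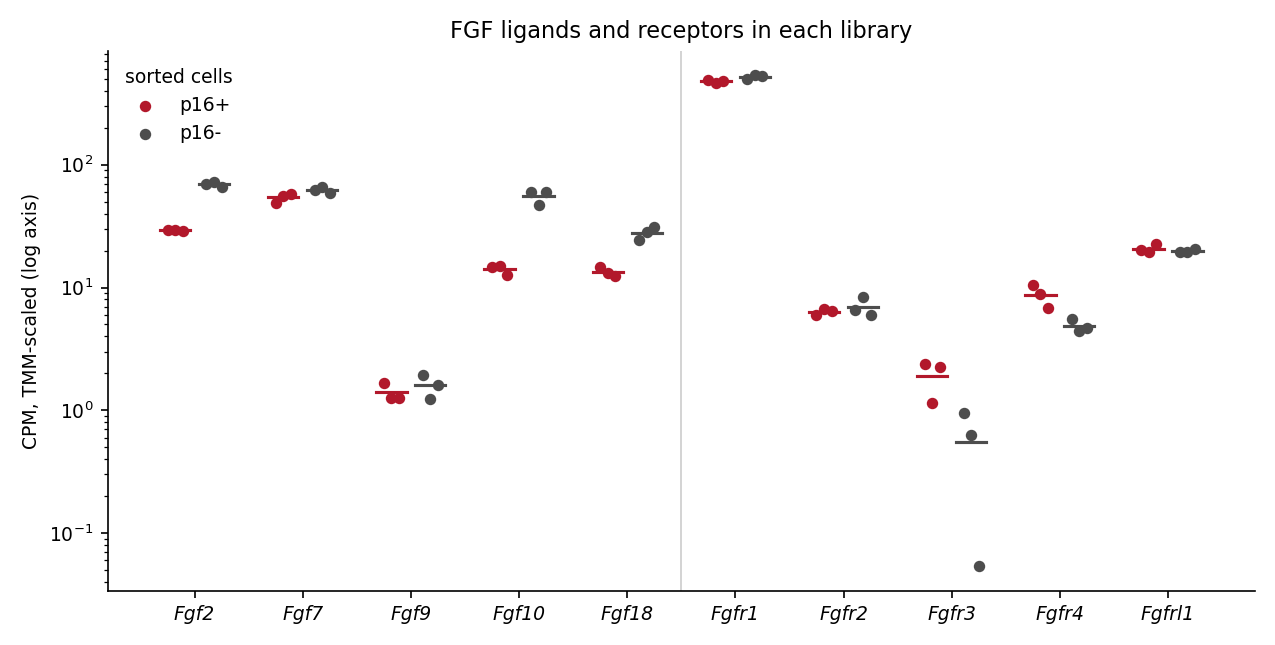
CPM of the 10 genes on a log axis, 3 libraries each of p16+ (red) and p16- cells (grey), with a line at each group mean; ligands stand left of the vertical line and receptors right of it. Fgf10, Fgf2 and Fgf18 of p16+ libraries lie below all p16- libraries, Fgfr4 and Fgfr3 above them, and p16- replicate 3 has the lowest Fgfr3 at 0.0538 CPM.

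Fgfr1 (ENSMUSG00000031565.18, chromosome 8, 25513654 to 25575718, plus strand), the main receptor of mesenchymal cells, was by far the most abundant member. It had 491, 467 and 477 CPM in p16+ and 499, 535 and 524 CPM in p16- libraries. The p16+ libraries were all slightly lower, yet the log2 fold change of -0.12 (SE 0.07, 95% interval -0.28 to 0.04) did not pass (adjusted p = 0.33 by edgeR). This interval holds for this fit alone. Over the 13 alternatives the log2 fold change of Fgfr1 was -0.19 to -0.09, with 0 calls.

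Fgfr4 (ENSMUSG00000005320.9, chromosome 13, 55152640 to 55168759, plus strand), a receptor known in muscle progenitors and liver, had 10.4, 8.85 and 6.83 CPM in p16+ and 5.53, 4.44 and 4.7 CPM in p16- libraries. The groups did not overlap, with p16+ replicate 3 nearest to the p16- libraries. The log2 fold change was 0.83 (SE 0.20, adjusted p = 0.00763 by edgeR), or 1.78-fold higher in p16+ cells. Without p16+ replicate 1, the library with the most Fgfr4, the call was lost (0.68, adjusted p = 0.0524).

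Some markers of other cells were, like Fgfr4, higher in p16+ cells, as were 8.69% of all genes tested. Of 6 satellite cell markers 3 were higher in p16+ cells, among them Pax7, with means of 7.57 ± 2.04 CPM for p16+ and 3.86 ± 1.28 CPM for p16- cells. The list summed to 214 to 251 CPM in p16+ and 129 to 161 CPM in p16- libraries, most of it Vcam1. Of 11 leukocyte markers 5 were higher. The 6 that did not pass included Cd68, with 15.8 ± 2.15 CPM in p16+ and 15.6 ± 0.949 CPM in p16- cells. The leukocyte list summed to 282 to 321 CPM in p16+ and 199 to 225 CPM in p16- libraries, most of it Lyz2. Of 8 pericyte and smooth muscle markers 5 were higher (sums of 1949 to 2014 CPM in p16+ and 1285 to 1633 CPM in p16-), and of 8 endothelial markers 3 were higher and 1, Tek, lower. The endothelial sum, most of it Tek, was 68.9 to 96.5 CPM in p16+ and 174 to 207 CPM in p16- libraries. Their part in the receptor's level was not tested.

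Fgfr3 (ENSMUSG00000054252.18, chromosome 5, 33721674 to 33737068, plus strand), the receptor that restrains bone growth, had 86, 42 and 77 counts in p16+ and 39, 25 and 2 counts in p16- libraries. These were 2.37, 1.14 and 2.25 CPM in p16+ and 0.959, 0.631 and 0.0538 CPM in p16-, a low level that varied severalfold within p16- cells. The log2 fold change was 1.79 with an SE of 0.65 and did not pass (adjusted p = 0.0756 by edgeR), while DESeq2 called it higher (1.81, adjusted p = 0.0249). Its call was also made without p16- replicate 1 (2.47, adjusted p = 0.0286). Another gene on the opposite strand, listed at 0 in every library, overlaps 13.9% of its exonic length.

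Fgfr2 (ENSMUSG00000030849.18, chromosome 7, 130162451 to 133123350, minus strand), the receptor whose splice forms separate epithelial from mesenchymal responses, had 6.02, 6.62 and 6.48 CPM in p16+ and 6.54, 8.4 and 5.97 CPM in p16- libraries. The groups overlapped (log2 fold change -0.13, SE 0.19, adjusted p = 0.712 by edgeR), and gene counts do not tell its splice forms apart. Fgfrl1 (ENSMUSG00000008090.14, chromosome 5, 108692382 to 108706924, plus strand), which binds FGFs without a kinase to signal, had 20.1, 19.5 and 22.5 CPM in p16+ and 19.5, 19.5 and 20.5 CPM in p16- libraries. Its log2 fold change was 0.06 with a 95% interval of -0.18 to 0.29 (adjusted p = 0.782 by edgeR).

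**Figure D2:**
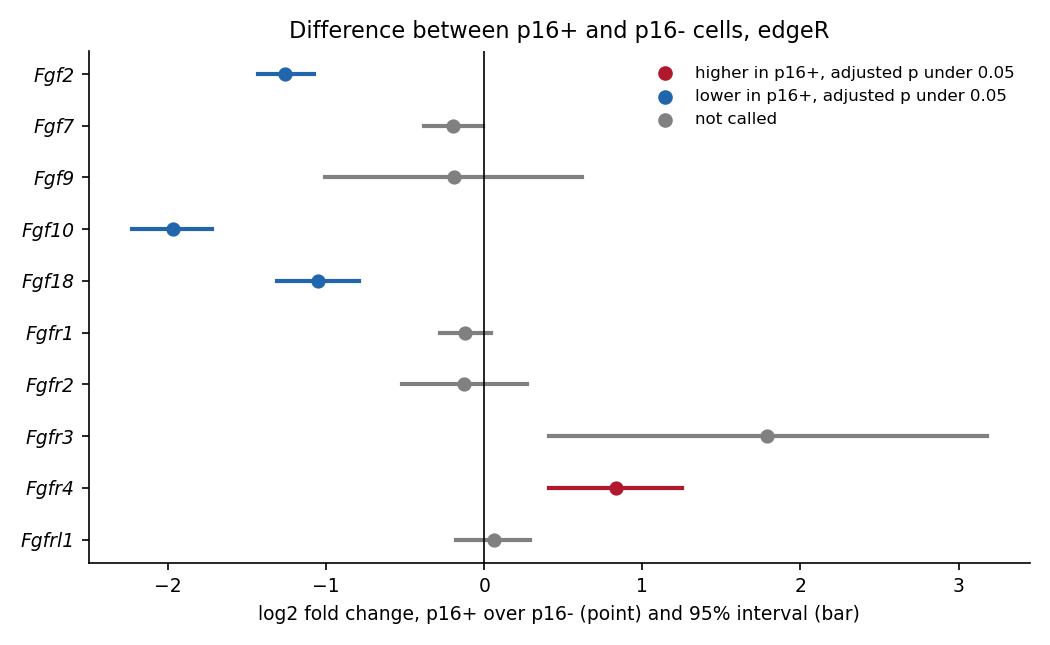
Log2 fold change of each gene, p16+ over p16-, with its 95% interval from edgeR. The intervals of Fgf10, Fgf2 and Fgf18 lie below -0.79, that of Fgfr4 between 0.41 and 1.25, and that of Fgfr3 reaches from 0.41 to 3.18.

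For the 7 members whose groups did not overlap, exact permutation of the library labels (two-sided, log2 CPM) gave p = 0.1, and no smaller p is possible with 3 libraries a group. Groups did not overlap in 33.1% of all genes tested. For the other 3 members this exact p was 0.7 to 0.8.

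Levels were compared between genes as RPKM, the CPM divided by the exonic length in kilobases. In p16+ cells the order was Fgfr1 at 48.4, Fgf7 at 16.7, Fgf18 at 11.3, Fgfrl1 at 7.43, Fgf2 at 4.29 and Fgf10 at 3.07 RPKM. Below these came Fgfr4 at 2.45 RPKM, whose libraries overlapped those of Fgf10, then Fgfr2 at 0.617, Fgf9 at 0.3 and Fgfr3 at 0.268 RPKM, the last pair overlapping. In p16- cells Fgfr1 at 52.6 RPKM was followed by Fgf18 at 23.5, Fgf7 at 19.1, Fgf10 at 12.1 and Fgf2 at 10.2 RPKM, of which Fgf10 and Fgf2 overlapped. Fgfrl1 at 7.13, Fgfr4 at 1.38, Fgfr2 at 0.675, Fgf9 at 0.343 and Fgfr3 at 0.0765 RPKM completed the order. Thus, per length, Fgf7 was the most abundant ligand of the set in p16+ libraries and Fgf18 in p16- libraries. This order rests on the annotated exonic length, 1187 bases for Fgf18 against 3248 for Fgf7 and 6782 for Fgf2. By mean CPM, not divided by length, Fgf7 led the ligands in p16+ cells at 54.1 CPM. In p16- cells Fgf2 led at 69.5 CPM, against 62 CPM for Fgf7 and 27.8 CPM for Fgf18.

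The 5 ligand genes together summed to 35.2, 36.1 and 35.6 RPKM in p16+ and 63.3, 65.1 and 67.3 RPKM in p16- libraries, so the p16+ sum was 54.6% of the p16- sum. The 5 receptor genes summed to 60.8, 57.6 and 59.2 RPKM in p16+ and 59.9, 63.3 and 62.4 RPKM in p16- libraries, 95.7% of the p16- sum. The ligand sums did not overlap between groups (exact permutation p = 0.1) and the receptor sums did (exact permutation p = 0.2). With library sizes alone, a scaling added here after seeing the data, these percentages were 51.8% and 90.9%.

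Within the ligand sum the shares differed between groups without depending on library scaling. Fgf7 made up 46.7 ± 3.83% of it in p16+ and 29.3 ± 2.2% in p16- cells, and Fgf10 8.63 ± 0.772% in p16+ and 18.5 ± 2.63% in p16- cells. Fgf2 had 12 ± 0.221% in p16+ and 15.7 ± 1.16% in p16- cells, while the share of Fgf18 overlapped at 31.7 ± 2.83% in p16+ and 35.9 ± 3.16% in p16-. Within the receptor sum Fgfr1 held 81.8 ± 0.303% in p16+ and 85 ± 0.548% in p16- cells, Fgfrl1 12.6 ± 0.935% in p16+ and 11.5 ± 0.386% in p16-, and Fgfr4 4.14 ± 0.805% in p16+ and 2.24 ± 0.327% in p16-. The Fgfrl1 difference of 1.02 percentage points was 0.408 by raw counts and 0.481 without p16+ replicate 3. Shares of 1 sum are not independent of each other. Of the 10 shares, 8 did not overlap between groups, each with the smallest exact permutation p of 0.1, or 0.12 after Benjamini-Hochberg adjustment over the 10.

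**Figure D3:**
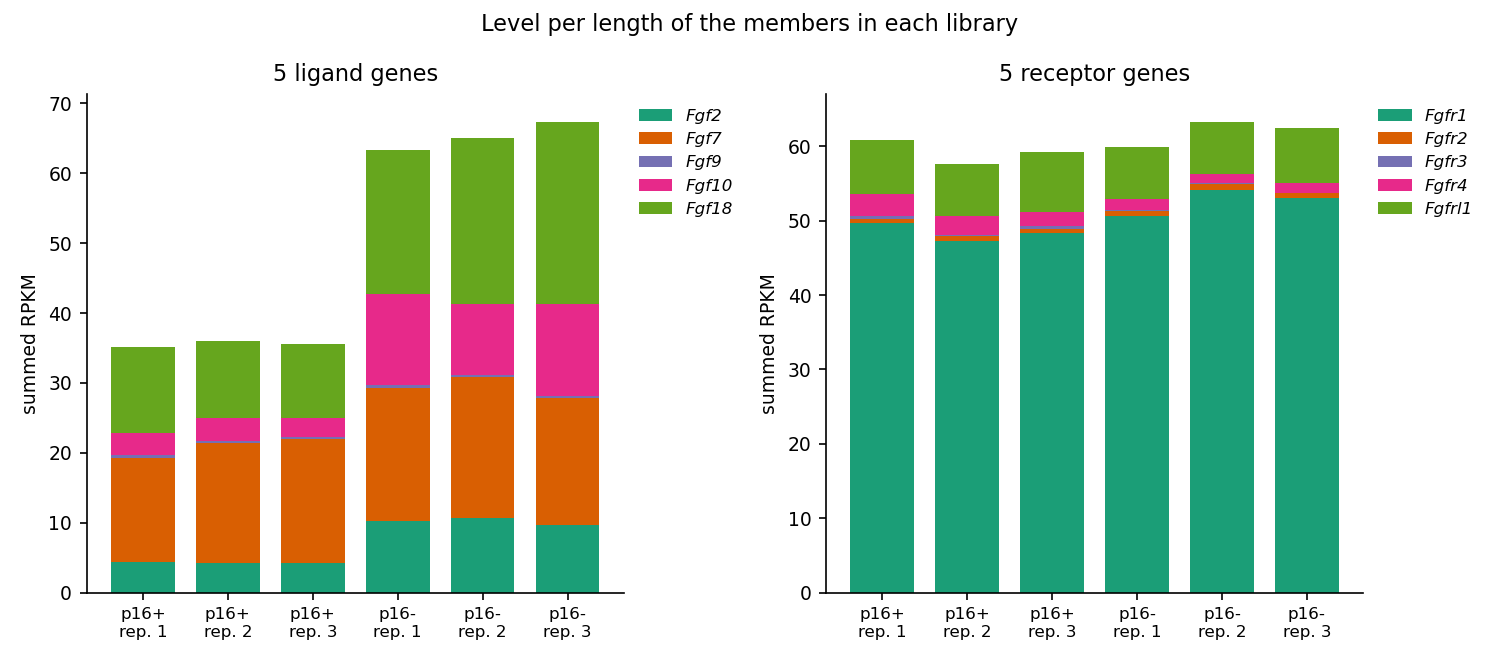
Summed RPKM of the 5 ligand genes (left panel) and the 5 receptor genes (right panel) in each library, p16+ replicates before p16- replicates, with each gene as a coloured segment. Ligand bars reach 35.2 to 36.1 RPKM in p16+ and 63.3 to 67.3 RPKM in p16- libraries, and receptor bars are of like height and mostly Fgfr1.

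Of 13 further secreted FGF genes only 3 passed the filter on low counts, Fgf1, Fgf16 and Fgf23, and 3 (Fgf3, Fgf15 and Fgf20) had 0 counts in every library. Fgf23, known as a bone hormone that lowers phosphate, was lower in p16+ cells, with 76, 84 and 69 counts in p16+ and 425, 190 and 215 counts in p16- libraries (means of 2.13 ± 0.141 CPM in p16+ and 7.01 ± 3.02 CPM in p16-). Its log2 fold change was -1.72 (SE 0.28, adjusted p = 0.000458 by edgeR). Kl, the gene of its co-receptor Klotho, had 4 to 22 counts per library and did not pass. Of the 3 tested FGF genes of this list, 1 was lower and 0 higher by edgeR, beside 8.04% and 8.69% of all genes tested. By DESeq2 and at an unadjusted p under 0.05 in edgeR, 0 of the 3 were higher as well. Of the 4 genes of intracellular FGF homologous factors, which do not act through FGF receptors, edgeR called 0 in the fit reported here. Over all genes tested 16.7% passed. At an unadjusted p under 0.05 it was 1, Fgf11, with 10.7 ± 2.21 CPM in p16+ against 7.36 ± 0.91 CPM in p16- cells (adjusted p = 0.0513). Fgf11 was called higher in 7 of 13 alternatives, DESeq2 among them, with adjusted p of 0.0185 to 0.215 over the 13.

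Genes for proteins that hold FGFs at the cell surface differed in both directions. Of 17 tested co-receptor and carrier genes 5 were higher, 1 lower and 11 did not pass, with a median log2 fold change of 0.07. Over all genes tested 8.69% were higher and 8.04% lower. The heparan sulfate proteoglycan genes Gpc1 (119 ± 7.31 CPM in p16+ and 44.5 ± 6.17 CPM in p16-, log2 fold change 1.43), Sdc1 (314 ± 17.1 CPM in p16+ and 144 ± 4.63 CPM in p16-, 1.12) and Sdc3 (117 ± 13.5 CPM in p16+ and 56.2 ± 10.2 CPM in p16-, 1.05) were higher in p16+ cells, with adjusted p of 1.59e-07, 1.59e-07 and 9.02e-06 by edgeR. Gpc3 was lower with 85.2 ± 15 CPM in p16+ against 192 ± 23.6 CPM in p16- cells (log2 fold change -1.17, adjusted p = 4.4e-06 by edgeR). Of the exonic length of Gpc1, 18.9% is overlapped by another gene. The count of genes lower was 2 with library sizes alone, with DESeq2, with the replicate number as a block and without p16- replicate 1.

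Of 16 genes for enzymes that build or trim heparan sulfate, 6 were higher, 3 lower and 7 did not pass (median 0.14). Over all genes tested 16.7% passed. Glce, whose enzyme epimerizes the chain's uronic acid, was lower with 46.1 ± 4.68 CPM in p16+ against 71 ± 3.92 CPM in p16- cells (log2 fold change -0.62, adjusted p = 0.000123 by edgeR). The 3-O-sulfotransferase gene Hs3st1 was lower as well (-0.82, adjusted p = 0.00175). Extl3, a chain initiation enzyme gene, was higher (0.44, adjusted p = 0.00151), as was Sulf1, whose enzyme removes 6-O-sulfates, with 397 ± 25.5 CPM in p16+ against 270 ± 46.3 CPM in p16- cells (0.56, adjusted p = 0.00159).

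Of 18 genes that relay the signal 2 passed, beside 16.7% of all genes tested. Map2k2, a MEK kinase gene, was higher (log2 fold change 0.27, adjusted p = 0.0313 by edgeR) and Sos2, a RAS exchange factor gene, lower (-0.39, adjusted p = 0.00427), and 16 did not pass, with a median of -0.01. The call of Map2k2 was lost with library sizes alone (adjusted p = 0.121) and without any 1 library other than p16- replicate 1 (adjusted p = 0.0671 to 0.165).

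Feedback genes went both ways. Of 13, 3 were higher, 1 lower and 9 did not pass (median 0.06), where 16.7% of all genes tested passed. Dusp6, an ERK phosphatase gene, was higher with 56.7 ± 4.12 CPM in p16+ against 40 ± 1.53 CPM in p16- cells (log2 fold change 0.50, adjusted p = 0.000511 by edgeR). Its relative Dusp4 was higher with 7.15 ± 0.699 CPM in p16+ against 3.85 ± 1.19 CPM in p16- cells (0.89, adjusted p = 0.0141), and Spry1 with 87.7 ± 5.24 CPM in p16+ against 72.5 ± 5.65 CPM in p16- cells (0.27, adjusted p = 0.0301). Another gene overlaps 24.4% of the exonic length of Spry1. Spry2 was lower with 105 ± 6.6 CPM in p16+ against 157 ± 12.2 CPM in p16- cells (-0.58, adjusted p = 0.000107). Only 1 was higher when p16+ replicate 1 was left out, and likewise p16+ replicate 3 or p16- replicate 3. Without scaling factors beyond library size, 2 were lower.

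Of 10 genes induced by FGF and ERK signalling, 0 were higher and 3 lower by edgeR (median -0.12). Over all genes tested these shares were 8.69% and 8.04%. At an unadjusted p under 0.05 4 of the 10 were higher, and DESeq2 called 2 higher. Those lower were the transcription factor genes Myc (280 ± 7.78 CPM in p16+ and 444 ± 45.2 CPM in p16-, log2 fold change -0.66, adjusted p = 3.97e-05) and Egr1 (3668 ± 113 CPM in p16+ and 4925 ± 317 CPM in p16-, -0.43, adjusted p = 0.00126), and Phlda1 (122 ± 12.9 CPM in p16+ and 192 ± 35.3 CPM in p16-, -0.65, adjusted p = 0.000785). Of the exonic length of Phlda1, 33% is overlapped by a gene model on the opposite strand. The classic FGF target genes Etv4 and Etv5 did not pass, with log2 fold changes of 0.83 (adjusted p = 0.0573) and 0.34 (adjusted p = 0.0806), and were named after their values were seen. Of 6 genes for proteins that regulate FGF receptor splicing, 4 were tested and 0 passed, by edgeR, by DESeq2 or at an unadjusted p under 0.05. The most abundant, Ptbp1, had 227 ± 10.8 CPM in p16+ and 216 ± 16.9 CPM in p16- cells. Esrp1, which sets the epithelial splice form, had at most 5 counts in a library. Esrp2 of the same list had 18, 24 and 4 counts in p16+ and 4, 5 and 2 counts in p16- libraries. Neither passed the filter on low counts.

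**Figure D4:**
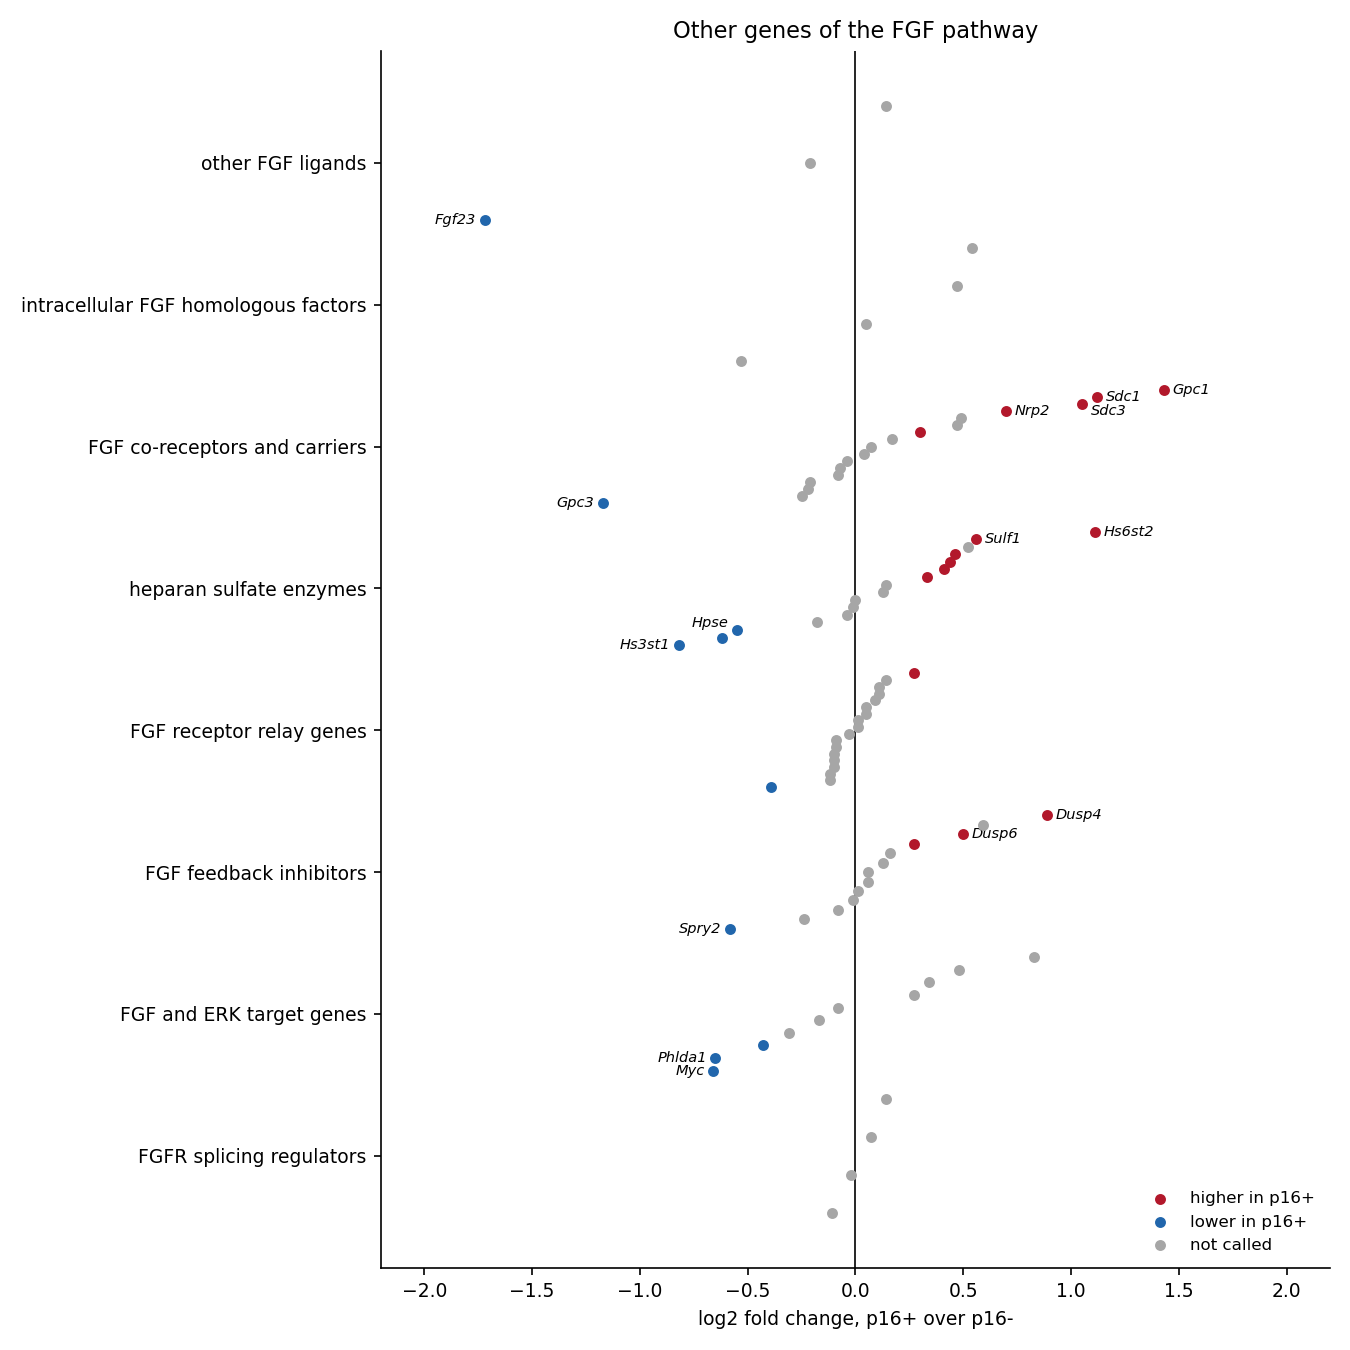
Log2 fold change, p16+ over p16-, of the 85 tested genes of 8 lists of the FGF pathway; red and blue points passed an adjusted p of 0.05 in edgeR and grey points did not. The 15 genes higher in p16+ lie mostly among co-receptors and heparan sulfate enzymes, and Fgf23 at -1.72 is the farthest to the left.

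The genes whose profile over the 6 libraries lay nearest to the called ligand and receptor with the smallest p were named as a description. Likeness was the root mean square difference of centred log2 CPM among 10513 genes. For Fgf10 they were Ces1d at 0.144, Pcolce2 at 0.155, Neurl3 at 0.194, Anxa3 at 0.204 and Efhd1 at 0.207, against a median of 0.996 over all candidates. Pcolce2 averaged 76.5 CPM in p16+ and 307 CPM in p16- cells. For Fgfr4 they were C1qc at 0.1, Ephx3 at 0.106, C1qa at 0.129, Pde4d at 0.130 and Ociad2 at 0.133, with a median of 0.473. C1qc and C1qa are complement genes that mark macrophages. C1qc had 14.3 CPM in p16+ and 7.76 CPM in p16- cells, and C1qa 16.8 CPM in p16+ and 10 CPM in p16- cells. All these genes were picked by likeness to Fgf10 or Fgfr4, so the direction of their difference was set by the choice. Of the 11 leukocyte markers, 5 were higher in p16+ cells and 6 did not pass. The part of macrophages in the level of Fgfr4 was not tested.

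Markers of glia moved in the direction of the ligands and were lower in p16+ cells for 4 of 6 genes, beside 8.04% of all genes tested. The glia list summed to 25.4 to 35.7 CPM in p16+ and 49.9 to 87.9 CPM in p16- libraries. Of the other lists, 0 of 7 muscle fibre markers passed by edgeR, by DESeq2 or at an unadjusted p under 0.05. Adipocyte markers summed to 0.234 to 1.51 CPM in p16+ and 0.656 to 5.06 CPM in p16- libraries. Of the 2 tested, 0 passed by edgeR, while 2 were lower at an unadjusted p under 0.05 and DESeq2 called 1 lower. Of 3 erythroid markers 1, Alas2, was lower although its groups overlapped, and they summed to 23.7 to 39.8 CPM in p16+ and 32.3 to 108 CPM in p16-. No marker of these lists was at 0 in every library. Their part in the ligands' levels was not tested.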

How the data were processed

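Per the labels' protocols, the 6 libraries of sorted stromal cells were TruSeq V2 preparations read as pairs of 50 bp; this kit keeps no strand information. The deposited files give unnormalized counts per gene. Per the file headers, featureCounts 1.6.0 counted read pairs over GENCODE vM21 exons, with no strand, multimapping or overlap option. STAR 2.7.3a, bcl2fastq and GRCm38.p6 are named in the submitters' processing notes. All 55536 identifiers matched vM21.

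Counts were filtered with filterByExpr, scaled by TMM and tested over 15903 genes with the quasi-likelihood F test of edgeR 4.0.16 (robust, group alone) in R 4.3.3, with Benjamini-Hochberg adjustment at 0.05; the test was tried on simulated counts. Log2 CPM used a prior count of 2. The common biological coefficient of variation was 0.158. Alternatives were RLE and upper-quartile factors, library sizes alone, no filter, CPM of at least 1 in at least 3 libraries, DESeq2 1.42.0, a replicate block and each library left out. Replicates within a group differed by far more than counting noise.

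Members and lists were chosen with earlier results of these data known. Named genes were the 10 members, the sort genes and the 5 nearest profiles of a ligand and a receptor. In each list up to 4 genes past the threshold were named by rank of p (where none passed, the most abundant). Others, including markers, Kl, Esrp1, Esrp2 and the genes overlapping a member, were added after their values were seen. The values of 1 marker gene are not reported here.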

Additional observations from a re-analysis of the deposited data

How the results depend on the processing

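The calls of Fgf10, Fgf2 and Fgf18 held in all 13 alternatives, with log2 fold changes of -2.08 to -1.90, -1.33 to -1.22 and -1.14 to -0.97. Fgfr4 was called in 12 of 13; leaving out 1 library gave 0.68 to 0.97. Fgfr3 was called with no filter on low counts (1.80), with CPM of at least 1 in at least 3 libraries (1.79), with DESeq2 (1.81) and with the replicate block (2.03), and leaving out 1 library gave 1.27 to 2.47. In these 4 settings the number of members higher was therefore 2, and with 1 library left out it was 0 to 2. Fgf7 was called lower with library sizes alone (-0.27). Near zero, signs turned: Fgfrl1 had -0.02 with library sizes alone and -0.00 to 0.10 with 1 library left out, Fgfr2 -0.23 to 0.03, and Ptbp1 -0.00 with library sizes alone.

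Shares of raw counts, not divided by length, differed between groups by -1.45 percentage points for Fgfr1, 0.793 for Fgfr4, 0.408 for Fgfrl1, -6.14 for Fgf2, 0.512 for Fgf9, -13 for Fgf10 and -0.888 for Fgf18, against -3.2, 1.9, 1.02, -3.68, 0.316, -9.91 and -4.17 per length. The difference of the Fgfr2 share was -0.0455, and -0.127 to 0.0521 with 1 library left out. The summed level in p16+ as a percentage of p16- was 51.8 for ligands and 90.9 for receptors with library sizes alone.

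Deviations of same-numbered libraries correlated at 0.03, 0.08 and -0.00. Of the p16+ libraries, replicate 2 correlated best with its own number and replicates 1 and 3 with another. With 3 libraries a group, this check cannot decide whether replicate numbers pair the libraries. The fit with the replicate block called 3114 genes in place of 2660, and among members it changed the call of Fgfr3 alone. The cause of these shifts was not tested. Fgf9 and Fgfr3 had under 100 counts in every library, and Fgfr3 had a biological coefficient of variation of 0.516, against 0.158 in common over genes.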

Other observations

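Other genes share exonic sequence with a member. Nudt6, transcribed from the strand opposite to Fgf2, had 38, 32 and 54 counts in p16+ and 46, 31 and 34 counts in p16- libraries and did not pass (log2 fold change 0.30, adjusted p = 0.736 by edgeR). An unnamed gene model opposite to Fgf10 had 2, 12 and 11 counts in p16+ and 21, 30 and 18 counts in p16- libraries (log2 fold change -1.31, adjusted p = 0.304 by edgeR), and overlaps 2.67% of the exonic length of Fgf10. Ctbp2 overlaps 3.04% of the exonic length of Fgfr2 on the same strand and was more abundant than Fgfr2 in CPM. It had 27 ± 0.698 CPM in p16+ and 25.2 ± 2.31 CPM in p16- cells (SD, n = 3 each) and did not pass.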
